A study of Mus musculus with 6 samples.

Results

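The genes described here are the Hox genes and their 2 families of DNA-binding partners, Meis and Pbx, in the lung of postnatal day 6 (P6) male FVB mice. The rule for membership used gene names and no measured value: every probe whose gene symbol was Hoxa, Hoxb, Hoxc or Hoxd with a number, or was that of a numbered Meis or Pbx gene. This gave 67 of the 25697 probes on the array, for 46 of its 18138 gene symbols: 39 Hox genes, 3 Meis genes and 4 Pbx genes. All 46 mouse genes in the RefSeq annotation with such names had a probe.

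RNA from 3 hSRY-OFF and 3 hSRY-ON lungs was hybridised to 6 Illumina MouseRef-8 BeadChips. Per the study's methods, all mice were of FVB/N background and the responder transgene was a single copy placed on chromosome 11. Before recombination, its CAG promoter (active in most tissues) drives the red fluorescent protein DsRed2, whereas the human SRY gene, which directs male sex determination, stays off (the state named hSRY-OFF). After recombination the DsRed2 gene is lost and the same promoter drives FLAG-tagged human SRY together with EGFP, which is the state named hSRY-ON. The recombinase came from the egg of a Ddx4-Cre mother, so the whole embryo carried the active transgene, and the hSRY-ON mice studied had not inherited the Cre transgene itself. The study also used littermates without the responder transgene as controls, so that the hSRY-OFF arrays carried the silent transgene rests on their label and on the meaning the methods give that name. The comparison asked how gene expression in the lung differed between mice with and without widespread human SRY activity. Per the study, hSRY-ON pups grew more slowly than littermates, lacked milk in their stomachs and showed retarded alveolar development. Effects of human SRY on lung cells, of this poor growth and of the change of fluorescent protein cannot be told apart here. The study describes its arrays as biological triplicates, and the labels number the replicates.

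Hox genes encode homeodomain transcription factors that give cells their position along the head-to-tail axis, and they lie side by side in 4 clusters, numbered so that low numbers are expressed more anteriorly. In the lung, Hox genes of the a and b clusters are known from the mesenchyme, and Hoxa5 is required for normal lung development. Meis and Pbx proteins are homeodomain factors of the TALE class, which bind DNA together with Hox proteins and increase their selectivity. Meis proteins also bind Pbx directly and keep it in the nucleus.

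The sequences of 4 promoters are shown because their genes were among those lower in hSRY-ON lung. Each is the 250 bases upstream of a RefSeq transcription start (assembly GRCm38.p6), read 5′ to 3′ on the gene's strand. Capitals mark a match to a searched motif. The Hoxa2 sequence lies at chr6:52164832-52165081 on the minus strand, Hoxa5 at chr6:52204588-52204837 on the minus strand, Hoxb4 at chr11:96318017-96318266 on the plus strand and Meis1 at chr11:19018970-19019219 on the minus strand.
Hoxa2: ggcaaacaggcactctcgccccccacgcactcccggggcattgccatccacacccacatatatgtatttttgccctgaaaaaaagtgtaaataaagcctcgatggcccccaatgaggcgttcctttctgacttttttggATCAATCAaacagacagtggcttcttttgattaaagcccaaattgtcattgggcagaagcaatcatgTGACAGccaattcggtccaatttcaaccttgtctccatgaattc
Hoxa5: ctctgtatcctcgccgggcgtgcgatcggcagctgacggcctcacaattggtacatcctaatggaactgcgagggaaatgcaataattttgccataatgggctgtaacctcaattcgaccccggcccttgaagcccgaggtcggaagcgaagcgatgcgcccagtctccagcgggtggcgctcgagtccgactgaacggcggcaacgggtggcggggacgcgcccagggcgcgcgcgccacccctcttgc
Hoxb4: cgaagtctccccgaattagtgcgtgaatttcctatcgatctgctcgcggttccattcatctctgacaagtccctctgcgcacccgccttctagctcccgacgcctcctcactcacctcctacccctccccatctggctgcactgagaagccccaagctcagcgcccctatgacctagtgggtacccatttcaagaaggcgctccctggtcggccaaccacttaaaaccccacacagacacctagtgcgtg
Meis1: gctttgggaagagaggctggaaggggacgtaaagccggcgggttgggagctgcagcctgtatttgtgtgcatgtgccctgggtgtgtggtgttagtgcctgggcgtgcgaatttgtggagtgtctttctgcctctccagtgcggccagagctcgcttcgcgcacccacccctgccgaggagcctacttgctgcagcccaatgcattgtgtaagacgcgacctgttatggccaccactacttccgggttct

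The windows searched were the 250 bases before each start, on both strands, and 27 of the 46 genes had 29 of them. Bases after the start were not searched. The SRY and SOX core AACAAT was in 0 of these 29 windows and in 9.42% of all 32851 promoter windows in the annotation table. The Meis motif TGACAG was in 2 windows (Hoxa2 and Hoxa3), against 15.9% of all. The composite Pbx-Hox motif TGATNNAT was in 4 windows (Hoxa2, Hoxb1, Hoxb8 and Hoxd11), against 7.68% of all. In Hoxa2 the Meis motif began at position -44 from the start and the Pbx-Hox motif, on the opposite strand, at position -111, and the matches do not overlap. A match is a description of the letters and not evidence of binding, and of the members lower in hSRY-ON lung only 5 genes (those shown and Hoxa7) had a window.

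Detection was read from the deposited detection p-value, the share of an array's negative control probes brighter than the probe, and a probe was called detected on an array at a value under 0.05. The 6 arrays detected between 26 and 30 of the 67 probes. Of the 39 Hox genes, 11 were detected on all 6 arrays by at least 1 probe, 17 were detected on at least 3 arrays and 19 were detected on none. The 17 fell unevenly over the clusters: 6 of 11 Hoxa genes, 6 of 10 Hoxb genes, 3 of 9 Hoxc genes and 2 of 9 Hoxd genes. In the a and b clusters, 11 of the 12 genes at positions 2 to 7 were detected on at least 3 arrays, and Hoxa6 was the exception. Beyond position 7 the only Hoxa or Hoxb gene detected was Hoxa13.

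Among the genes detected on no array were Hoxa9, Hoxa10, Hoxa11, Hoxb1, Hoxb8, Hoxb9, Hoxb13, Hoxc5, Hoxc6, Hoxc9, Hoxc11, Hoxc12, Hoxd1, Hoxd3, Hoxd4, Hoxd12 and Hoxd13. Hoxc13 passed in 1 hSRY-OFF lung, and Hoxd8 and Hoxd10 in 1 hSRY-ON lung each. All 3 Meis genes, Pbx2, Pbx3 and Pbx4 were detected on at least 3 arrays. At a stricter detection p under 0.01, 17 of the 46 genes passed on at least 3 arrays in place of 24. A probe that is not detected may be dim because it binds poorly, so absence of RNA does not follow.

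**Figure D1:**
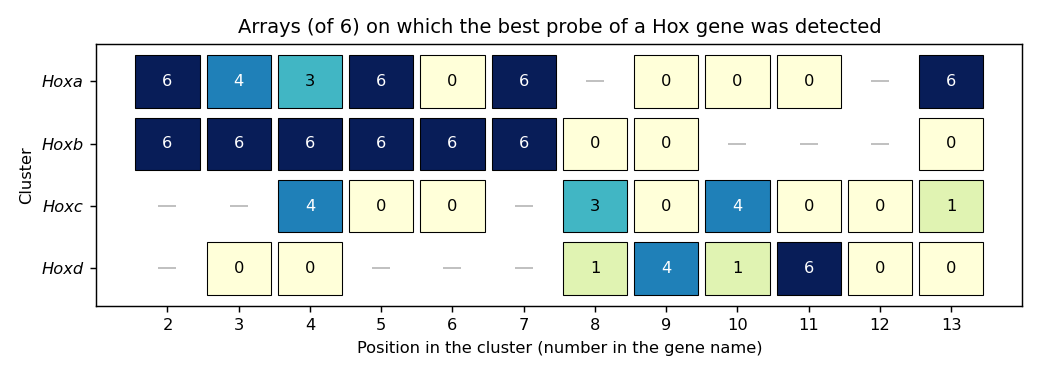
Number of arrays (of 6) on which the best probe of each Hox gene at positions 2 to 13 was detected (detection p under 0.05), by cluster (rows) and position in the cluster (columns). Dashes mark positions with no such gene. The dark run covers positions 2 to 7 of Hoxb and most of the same positions of Hoxa, whereas Hoxc and Hoxd hold a single gene detected on all 6 arrays, Hoxd11.

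The 32 member probes (24 genes) detected on at least 3 arrays entered the comparison, with all other such probes, in limma. Of these, 14 probes (12 genes) were lower in hSRY-ON lung and 4 probes (3 genes) were higher at an adjusted p under 0.05. Over all 13841 probes tested, 13.3% were lower and 13.6% were higher (26.9% in either direction), whereas of the members 43.8% were lower and 12.5% were higher. The median log2 change was -0.39 over the members and -0.03 over all probes. The members' median was -0.63 without hSRY-OFF replicate 2, -0.67 without hSRY-ON replicate 3, and between -0.056 and -0.85 under other detection filters. Hoxa4 was detected on hSRY-OFF arrays alone, so it entered only through the group in which it was high. Pbx4 and Hoxd9 were detected on 3 hSRY-ON arrays and 1 of hSRY-OFF, so they too needed the group in which they were high. Among the 22 member probes detected on all 6 arrays, 13 were lower and 3 were higher. The shares above are over all probes tested, and no share is given for all probes detected on all 6 arrays. In a fit of only such probes, 14 of the 22 were lower and 3 higher, beside 1684 lower and 1772 higher over all of them. The values of the groups did not overlap, with hSRY-ON below, for 15 of the 32 probes and with hSRY-ON above for 5. Over all probes the share was 24.1% with hSRY-ON below and 46.6% in either direction. The counts rest in part on single arrays: without hSRY-OFF replicate 1, 9 member probes were called (1504 of all probes), and without hSRY-OFF replicate 2, 11 were called (1621 of all probes), in place of 18 and 3728. In whole-lung RNA, fewer cells of a type and less RNA per cell cannot be told apart.

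**Figure D2:**
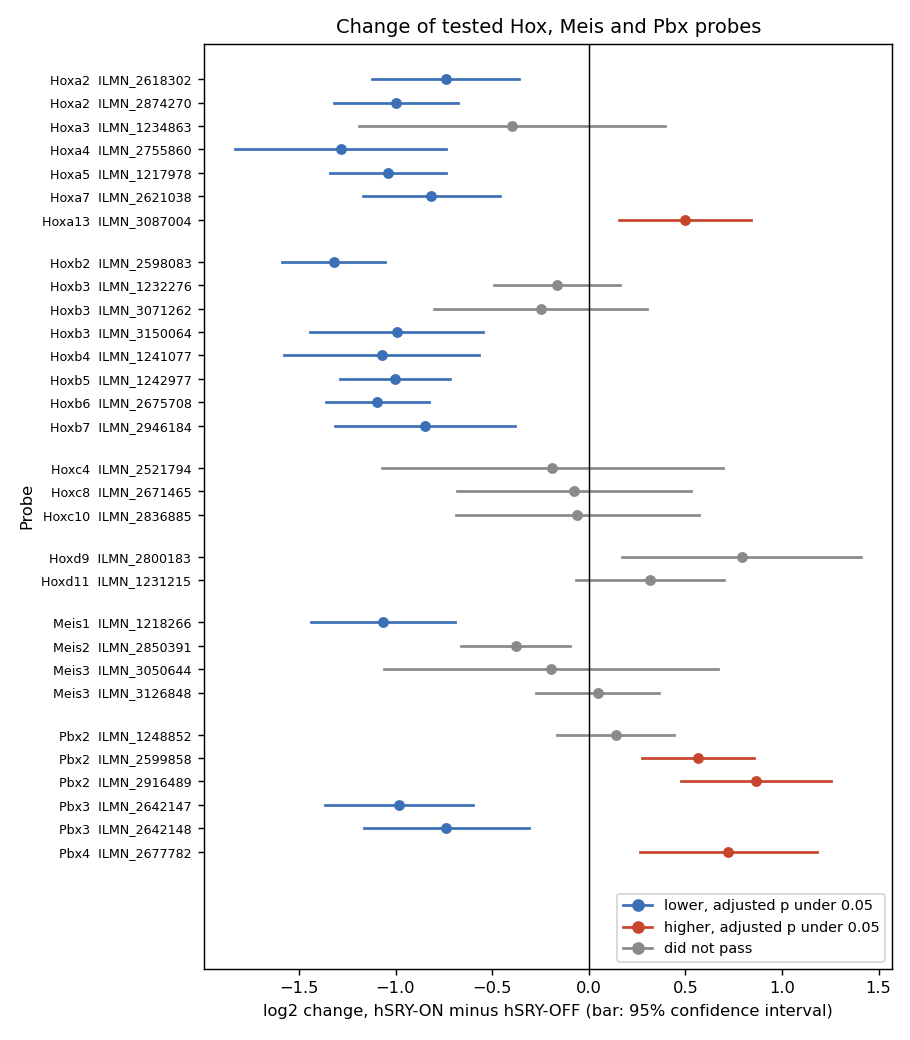
Log2 change (hSRY-ON minus hSRY-OFF, horizontal axis) of 30 of the tested Hox, Meis and Pbx probes, with its 95% confidence interval from limma before adjustment for multiple testing. Blue marks the 14 probes called lower, red the 4 called higher and grey the rest. The Hoxa and Hoxb probes at positions 2 to 7 all lie left of 0.

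Most Hoxa and Hoxb genes at positions 2 to 7, a range picked from these same data, were lower. All 14 of their tested probes had a negative change, 11 (10 genes) were called lower and none higher, and the median change was -0.995. Over all probes tested, 13.3% were lower and 13.6% were higher, with a median change of -0.03. The change of the 11 called probes lay between -0.74 and -1.32 on the log2 scale, and between -0.40 and -1.13 when no background was subtracted. Among those with the smaller values in the second case, Hoxa4 was at -0.40, Hoxb4 at -0.41, Hoxb3 at -0.45 and Hoxa7 at -0.46. Each value below is a normalized log2 intensity, which can be compared between arrays for a probe but not between probes.

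Hoxa5, the Hox gene with the best known part in lung development, was at 12.55, 12.75 and 12.55 on the hSRY-OFF arrays and at 11.72, 11.55 and 11.46 on the hSRY-ON arrays (probe ILMN_1217978). The groups were separated by a wide gap. The difference was -1.04 ± 0.13 (SE, n = 3 per group), which is 2.06-fold lower (limma, adjusted p = 0.00275).

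Hoxa2, the most anterior gene of its cluster detected here and a regulator of hindbrain and neural crest identity, was measured by 2 probes. Probe ILMN_2874270 gave 9.38, 9.44 and 9.32 in hSRY-OFF and 8.32, 8.23 and 8.61 in hSRY-ON lungs. Probe ILMN_2618302 gave 9.55, 9.52 and 9.28 in hSRY-OFF and 8.54, 8.59 and 8.998 in hSRY-ON lungs. For both probes hSRY-ON replicate 3 was the closest to the hSRY-OFF arrays and still lay below all of them. The changes were -0.996 ± 0.14 (SE, limma, adjusted p = 0.00382) and -0.74 ± 0.16 (SE, limma, adjusted p = 0.0172).

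Hoxa7, which helps to pattern the trunk vertebrae, was at 7.70, 8.07 and 7.84 in hSRY-OFF and at 7.12, 6.86 and 7.19 in hSRY-ON lungs (ILMN_2621038). All hSRY-ON values were below all hSRY-OFF values, with a change of -0.81 ± 0.15 (SE, limma, adjusted p = 0.00999). Hoxa4, a patterning gene of the neck region, was at 6.06, 6.46 and 6.90 in hSRY-OFF lungs (ILMN_2755860). Its hSRY-ON values of 5.42, 4.96 and 5.19 were not above background on any of the 3 arrays. Where an hSRY-ON value was below the lowest value among detected probes, it was set to that value. The Hoxa4 level was then at least 2.09-fold lower in this processing, a bound that carries no test. The adjusted p of 0.00919 (limma) belongs to the fitted change of -1.28, which used the hSRY-ON values at background. The probe entered that fit through the hSRY-OFF group alone. The bound depends on the background correction, since the fitted change of -1.28 was -0.81 with an offset of 50 and -0.40 without background correction. Hoxa3, which is needed for the thymus and parathyroid, did not pass: its detected probe changed by -0.40 (95% confidence interval -1.19 to 0.39), the groups overlapped, and its other 2 probes were detected on no array.

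Hoxb2, a regulator of hindbrain and facial nerve patterning, had the largest fall of the member probes detected on all 6 arrays. It was at 10.38, 10.32 and 10.36 in hSRY-OFF and at 9.03, 8.94 and 9.14 in hSRY-ON lungs (ILMN_2598083). The spread within each group was small beside the gap of -1.32 ± 0.11 (SE), a 2.50-fold fall (limma, adjusted p = 0.000969).

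Hoxb5, a mesenchymal gene known from branching of the lung, was at 12.01, 12.01 and 12.00 in hSRY-OFF and at 10.84, 11.05 and 11.12 in hSRY-ON lungs (ILMN_1242977). It was 2.004-fold lower (log2 change -1.003 ± 0.12, SE, limma, adjusted p = 0.00253). Hoxb6, its neighbour, was at 8.10, 8.23 and 8.27 in hSRY-OFF and at 7.04, 7.12 and 7.16 in hSRY-ON lungs (ILMN_2675708). The 3 arrays of each group lay close together, and the change was -1.09 ± 0.11 (SE, limma, adjusted p = 0.00159).

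Hoxb4, best known for its effect on blood stem cells, was at 7.34, 6.55 and 6.75 in hSRY-OFF and at 5.92, 5.85 and 5.65 in hSRY-ON lungs (ILMN_1241077). Its hSRY-OFF values were spread widely but all lay above the hSRY-ON values, with a change of -1.07 ± 0.21 (SE, limma, adjusted p = 0.0127). Hoxb7 was at 8.65, 8.58 and 8.55 in hSRY-OFF and at 7.65, 7.42 and 8.17 in hSRY-ON lungs (ILMN_2946184). Here hSRY-ON replicate 3 stood between the other hSRY-ON arrays and the hSRY-OFF arrays, and the change was -0.85 ± 0.20 (SE, limma, adjusted p = 0.0209).

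The 3 probes of Hoxb3, a hindbrain patterning gene, differed in their result. Probe ILMN_3150064 was at 7.32, 7.60 and 6.90 in hSRY-OFF and at 6.22, 6.22 and 6.41 in hSRY-ON lungs, a change of -0.99 ± 0.19 (SE, limma, adjusted p = 0.0112). The other 2, ILMN_1232276 and ILMN_3071262, changed by -0.16 and -0.25 and did not pass (limma, adjusted p = 0.406 and 0.46). The transcripts that each probe targets were not examined here, so which Hoxb3 isoforms they read is unknown.

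**Figure D3:**
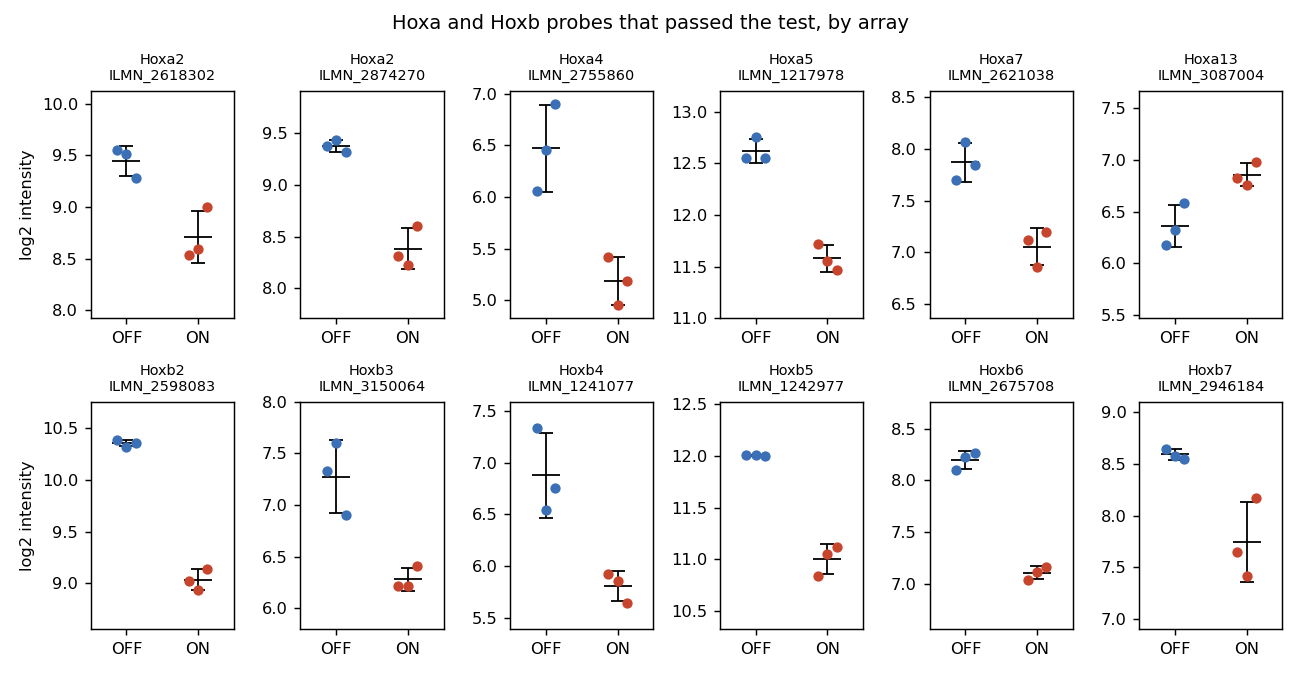
Normalized log2 intensity (vertical axis) of the 12 Hoxa and Hoxb probes that passed the test, on each of 3 hSRY-OFF (blue) and 3 hSRY-ON (red) arrays, in replicate order from left to right within a group. Bars show the mean and SD, and each panel has its own range. The groups do not overlap in any panel, and Hoxa13 is the only probe with hSRY-ON above hSRY-OFF. The panels were selected for passing the test, so the separation is a description. Over all probes tested, 46.6% had no overlap in either direction.

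The 11 called probes had been selected for low hSRY-ON values, so their spread over the hSRY-ON arrays is given as a description. Over these probes, the median difference from the hSRY-OFF mean was -1.05 in replicate 1 of hSRY-ON, -1.07 in replicate 2 and -0.89 in replicate 3. Replicate 2 was the lowest hSRY-ON array for 6 of the 11 probes and replicate 3 the highest for 8. The calls for Hoxa5, Hoxa7, Hoxb2, Hoxb5, Hoxb6 and Hoxa2 (ILMN_2874270) held under every alternative run. Hoxa4 did not enter the fit when any 1 of the hSRY-OFF arrays was left out or when detection on all 6 arrays was required, so its call was not examined there. The Hoxb3 call did not hold once hSRY-OFF replicate 1 was left out (adjusted p = 0.0505). That of Hoxa2 by ILMN_2618302 did not hold without hSRY-OFF replicate 1, hSRY-OFF replicate 2 or hSRY-ON replicate 2 (adjusted p from 0.053 to 0.0729), nor did that of Hoxb7 without any 1 of the hSRY-OFF replicates or hSRY-ON replicate 2 (adjusted p from 0.0512 to 0.0797).

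Of the remaining Hox genes, only Hoxa13 and 5 Hoxc and Hoxd genes were detected well enough to be compared, and none of these was called lower. Hoxa13, the last gene of its cluster and a regulator of limb and hindgut ends, was at 6.18, 6.32 and 6.59 in hSRY-OFF and at 6.83, 6.76 and 6.98 in hSRY-ON lungs (ILMN_3087004). It was higher by 0.50 ± 0.14 (SE, limma, adjusted p = 0.0428), but its other 2 probes were detected on no array, and the call was lost under 12 of 17 alternatives, including without hSRY-OFF replicate 1 or 2 or any 1 of the hSRY-ON replicates. None of the 5 tested Hoxc and Hoxd probes passed.

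Hoxc10, the Hoxc probe picked for display by its mean intensity, was at 4.95, 5.53 and 5.92 in hSRY-OFF and at 5.69, 5.43 and 5.11 in hSRY-ON lungs. The groups overlapped fully, and the change of -0.06 had a 95% confidence interval from -0.69 to 0.57. Hoxc4 and Hoxc8 changed by -0.19 and -0.08, with intervals from -1.07 to 0.69 and from -0.68 to 0.53. All 3 probes were close to background in both groups, where a fall could be recorded only in part, so whether they were lower in hSRY-ON lung could not be read.

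Hoxd11, a gene of posterior trunk and kidney patterning, was at 5.53, 5.79 and 5.76 in hSRY-OFF and at 5.93, 6.29 and 5.81 in hSRY-ON lungs (ILMN_1231215). The hSRY-ON values were all above the hSRY-OFF values, but the change of 0.32 ± 0.16 (SE) did not pass (limma, adjusted p = 0.187). Hoxd9 passed detection on all 3 hSRY-ON arrays and on 1 of hSRY-OFF, with a change of 0.79 ± 0.26 (SE) that did not pass either (limma, adjusted p = 0.0629). It passed without hSRY-ON replicate 3 (adjusted p = 0.0296).

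Of the Hox cofactors, Meis1, a partner of Hox proteins in blood, limb and vessel development, was lower. Its probe ILMN_1218266 was at 11.19, 11.20 and 11.23 in hSRY-OFF and at 10.46, 9.94 and 10.04 in hSRY-ON lungs. The hSRY-OFF arrays were nearly equal, while hSRY-ON replicate 1 stood above the other hSRY-ON arrays. The change was -1.06 ± 0.16 (SE), or 2.09-fold lower (limma, adjusted p = 0.00496), and it held under every alternative run. Meis2, its close relative, lay between 10.52 and 10.70 in hSRY-OFF and between 10.09 and 10.26 in hSRY-ON lungs. Although these ranges did not overlap, the change of -0.38 ± 0.12 (SE) missed the threshold (limma, adjusted p = 0.0554), and it passed under 5 of the alternatives. The 2 probes of Meis3 changed by -0.20 and 0.05 and did not pass (limma, adjusted p = 0.718 and 0.824).

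The Pbx genes went in different directions. Pbx3 was lower by 2 of its 3 probes, the other being detected on no array. Probe ILMN_2642147 was at 7.86, 7.90 and 7.77 in hSRY-OFF and at 6.54, 6.96 and 7.07 in hSRY-ON lungs. Probe ILMN_2642148 was at 7.98, 8.03 and 7.69 in hSRY-OFF and at 7.16, 6.87 and 7.45 in hSRY-ON lungs. Both probes separated the groups, with changes of -0.98 ± 0.16 and -0.74 ± 0.18 (SE, limma, adjusted p = 0.00689 and 0.0249). The second no longer passed without hSRY-OFF replicate 1, hSRY-OFF replicate 2 or hSRY-ON replicate 2 (adjusted p from 0.0602 to 0.096).

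Pbx2, a broadly expressed member of the family, was higher by 2 of its 3 probes. Probe ILMN_2916489 was at 9.02, 9.32 and 9.22 in hSRY-OFF and at 9.85, 10.33 and 9.98 in hSRY-ON lungs. Probe ILMN_2599858 was at 9.64, 9.73 and 9.74 in hSRY-OFF and at 10.16, 10.44 and 10.22 in hSRY-ON lungs. In both, hSRY-ON replicate 2 was the highest array, and the changes were 0.87 ± 0.16 and 0.57 ± 0.12 (SE, limma, adjusted p = 0.0107 and 0.0165). The remaining probe, ILMN_1248852, changed by 0.14 with overlapping groups (limma, adjusted p = 0.446). Without hSRY-OFF replicate 1 neither call held (adjusted p = 0.0505 and 0.0752), and ILMN_2599858 also failed without hSRY-OFF replicate 2 or 3.

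Pbx4 was at 5.31, 4.70 and 5.22 in hSRY-OFF and at 5.87, 5.95 and 5.58 in hSRY-ON lungs (ILMN_2677782). Its probe passed detection on 1 array of the hSRY-OFF group and all 3 of the hSRY-ON group, so it entered the test through the hSRY-ON group, and the fitted level was higher by 0.72 ± 0.19 (SE, limma, adjusted p = 0.0341). This call was lost under 8 of 15 alternatives, among them without any 1 of the hSRY-OFF replicates or hSRY-ON replicate 1 or 2.

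**Figure D4:**
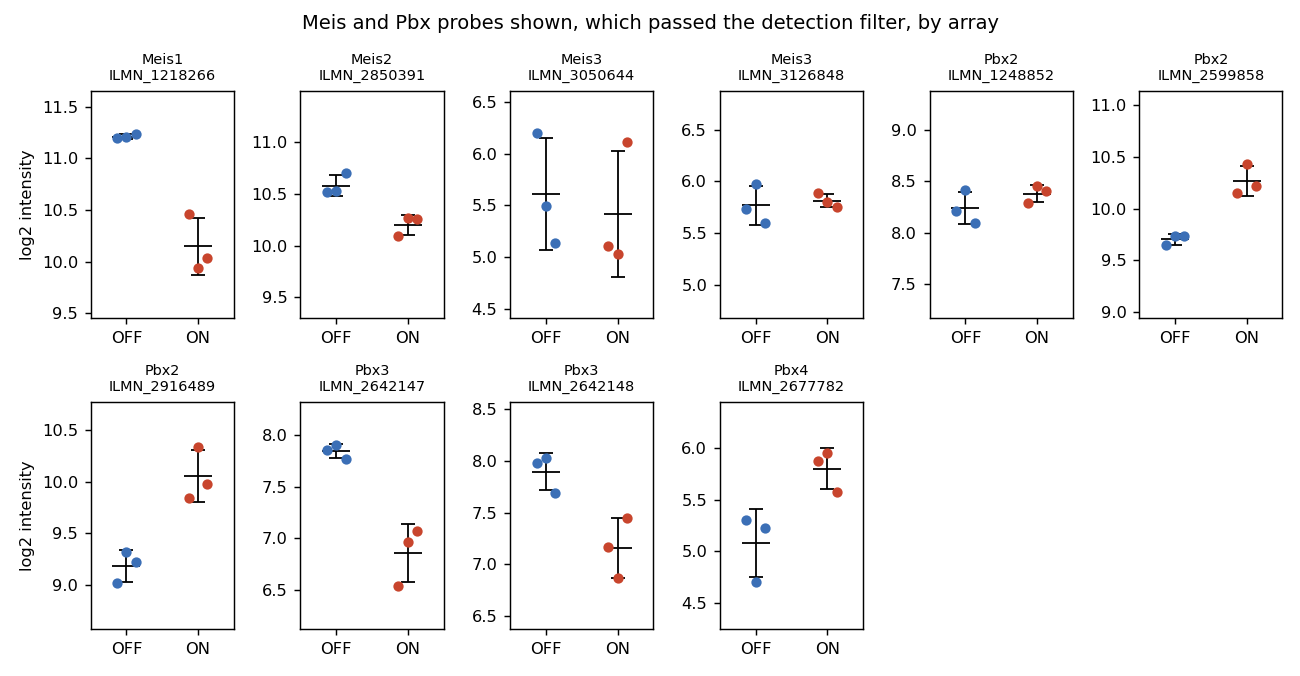
Normalized log2 intensity (vertical axis) of 10 tested Meis and Pbx probes on each of 3 hSRY-OFF (blue) and 3 hSRY-ON (red) arrays, in replicate order from left to right within a group. Bars show the mean and SD, and each panel has its own range. Meis1 and 2 Pbx3 probes lie lower in hSRY-ON, while 2 Pbx2 probes and Pbx4 lie higher.

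Genes beside the clusters were examined to see whether the change extended along the chromosome, in a comparison chosen after the Hox values were known. For each of Hoxa (chromosome 6) and Hoxb (chromosome 11, which also holds the transgene and Meis1), the 8 nearest tested protein-coding genes on each side were taken in RefSeq order. Of these 32 genes, 8 were higher, 6 were lower and 18 did not pass, with a median change of -0.04. Over all probes tested, 13.6% were higher and 13.3% lower. The nearest genes of Hoxa were Skap2 (change -0.22) and Hibadh (0.14), neither of which passed. Those of Hoxb were Snx11, which did not pass (-0.08), and Calcoco2, an autophagy receptor gene, which was higher by 0.66 (limma, adjusted p = 0.0172). In the clusters themselves, 4 of 6 tested Hoxa genes and all 6 tested Hoxb genes were lower.

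**Figure D5:**
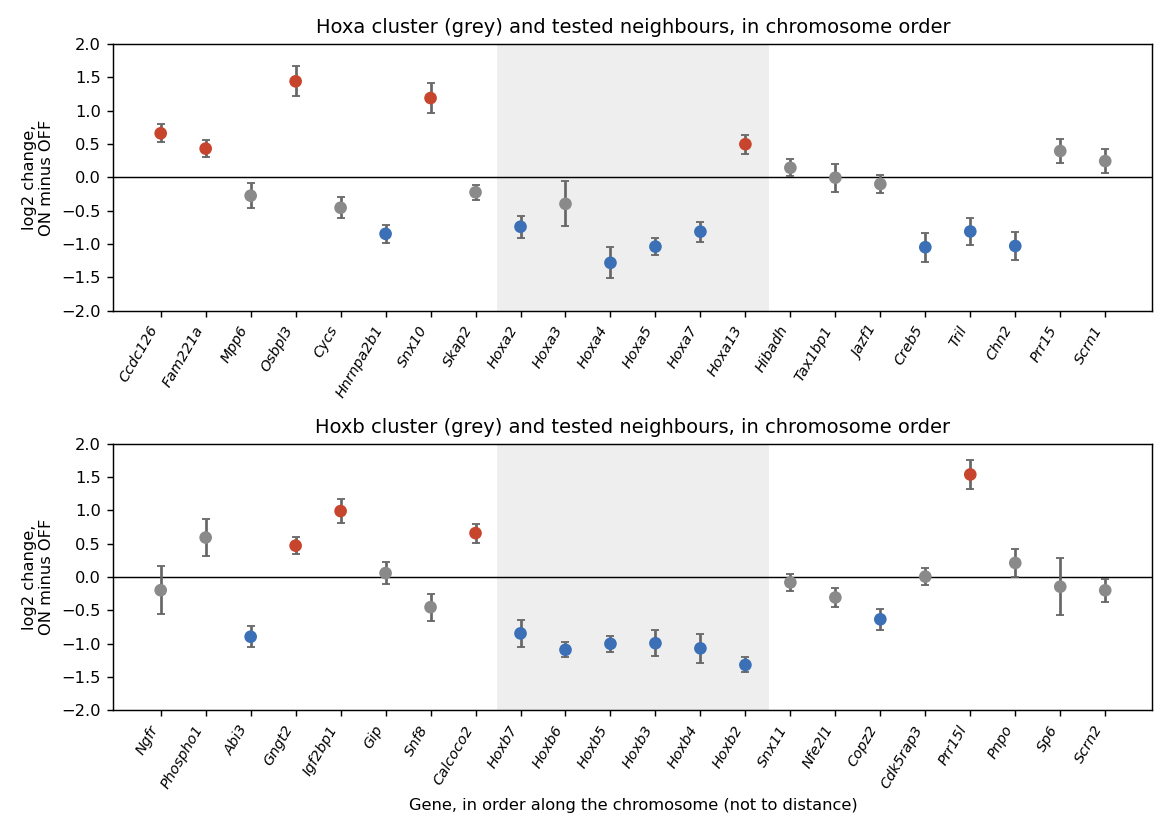
Log2 change (hSRY-ON minus hSRY-OFF, vertical axis; bars are SE from limma) of the tested genes of the Hoxa and Hoxb clusters (shaded band) and of 8 tested genes on each side, in chromosome order and not to distance. Blue points are lower, red are higher and grey did not pass; the 6 Hoxb genes lie between -0.85 and -1.32, whereas the genes around both clusters scatter from -1.05 to 1.54.

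Lists of genes that act with Hox proteins or on their expression were read from the same fit, with 1 probe per gene. Their counts stand against 13.6% higher and 13.3% lower over all probes tested, and they carry no test against it. Of 9 tested TALE relatives and Pbx partners, 2 were lower and none higher (median change -0.25). These were Tgif2, a repressor in TGF-beta signalling (-0.70; limma, adjusted p = 0.0259), and Pknox1, a Pbx partner also called Prep1 (-0.44; limma, adjusted p = 0.0442). Of 7 Trithorax and MLL complex genes, which keep Hox genes active, 2 were lower and none higher (median -0.30), namely Hcfc1 (-1.22) and Ash2l (-0.52).

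Of 12 Polycomb genes, which keep Hox genes repressed, 3 were lower and 1 was higher (median -0.20). For this list and the next, the shares over all probes tested were again 13.6% higher and 13.3% lower. Bmi1, a Polycomb repressor subunit, was lower, at -0.67 (limma, adjusted p = 0.00931), while Cbx7 was higher by 1.29 (limma, adjusted p = 0.0061). Of 8 genes for retinoic acid receptors and enzymes and Cdx factors, which act upstream of Hox genes, 2 were higher and none lower (median 0.05). Those were Aldh1a2, an enzyme of retinoic acid synthesis (0.58; limma, adjusted p = 0.0161), and Rarb, a receptor for it (0.51; limma, adjusted p = 0.0176).

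Some markers of the cells that make up the lung differed between the groups, with the same background of 13.6% higher and 13.3% lower over all probes. Of 13 mesenchymal markers, 5 were lower, including Foxf1 (-1.21) and the growth factor gene Wnt2 (-2.18), and 1 was higher, Dcn (0.98). The median change was -0.46, and 9 of the 13 changes were negative. The mean level of that list was 10.5 to 10.7 on hSRY-OFF arrays and 9.97 to 10.2 on hSRY-ON arrays. Of 7 endothelial markers, 3 were lower (median -0.42), with Tie1 and Cldn5 at -0.82 and -0.67, and the list's mean level was 12.7 to 12.8 in hSRY-OFF and 12.2 to 12.3 in hSRY-ON lungs. Of 9 epithelial markers, 3 were higher and none lower (median 0.22), with Sftpb and Krt8 at 0.67 and 0.48. Of 10 proliferation genes, 9 were lower (median -1.45), with Mcm3 and Mcm6 at -1.70 and -1.44, and the list's mean level was 9.54 to 9.85 in hSRY-OFF and 7.98 to 8.89 in hSRY-ON lungs.

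Of 7 leukocyte genes, 2 were higher and 1 lower, with Tyrobp at 1.004 and the T cell gene Cd3e at -1.75. Some genes listed as markers of thymocytes and of cardiac muscle differed too. Whether their RNA came from the lung itself or from tissue beside it was not tested. The study reports an occasionally absent or minimized thymus in hSRY-ON pups. Of 4 tested thymocyte genes, 3 were lower (among them Cd8b1 at -2.24 and Lck at -1.25), while Ptcra did not pass (-0.26; limma, adjusted p = 0.451). The list's mean level was 7.61 to 7.97 in hSRY-OFF and 5.99 to 7.14 in hSRY-ON lungs. The other 4 thymocyte genes (Cd8a, Cd4, Dntt and Rag1), the endothelial gene Kdr and the leukocyte gene Ptprc were detected on no array. Of 7 cardiac muscle genes, 2 were lower and 1 was higher (median -0.11), with Myl4 at -1.94 and Nppa at 5.55. Nppa was near background in hSRY-OFF lungs, with a mean of 5.79 and detection on 2 arrays. The list's mean level, which includes Nppa, was 8.19 to 8.82 in hSRY-OFF and 8.35 to 9.45 in hSRY-ON lungs. The change was negative for 4 of the 7 genes. Whether the share of mesenchymal, dividing, thymocyte or cardiac muscle cells in each sample sets the Hox, Meis and Pbx values was not tested.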

How the data were processed

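RNA of 6 lung samples (3 hSRY-OFF, 3 hSRY-ON, grouped by sample titles) was measured on 1-colour BeadChips. The authors deposited, per probe and array, a linear intensity that was neither background-corrected nor normalized, and a detection p-value; median intensities ranged from 177.1 to 204.0, and the software that summarised the beads is not given in the sources used here. The number of arrays limits the precision.

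The study's methods name the count-based package TCC, whereas the submitters' processing notes name limma. Because the values are intensities, limma 3.58.1 in R 4.3.3 was used: background estimated from the detection p-values, offset 16, quantile normalization, log2, then lmFit and eBayes. Quantile normalization removes any overall shift between groups, and log2 changes near background are compressed. Probes with detection p under 0.05 on at least 3 arrays were kept (13841 probes), and p-values were Benjamini-Hochberg adjusted over all of them (two-sided, threshold 0.05). An exact permutation test of 3 against 3 cannot go below p = 0.1, so none was run.

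Array values are given for every called member probe and for the brightest tested probe of each family. Of the other lists the 2 genes with the smallest p are named. Hoxd9, Meis2, Dcn, Ptcra, the cluster neighbours and the grouping at positions 2 to 7 were added after their values were seen. Of the genes chosen by the rule, 2 enter the counts and are otherwise not reported here. List and neighbour genes took the kept probe of highest mean. The members, lists and tests were chosen with earlier results of these data known. Symbols were matched through RefSeq synonyms. The pipeline was tested on simulated data. Alternatives covered background correction, normalization, filters, variance model, threshold, replicate block and leaving out each array.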

Additional observations from a re-analysis of the deposited data

How the results depend on the processing

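The count of member probes called stayed within 1.5 times of 18 under other background corrections, normalizations, filters and variance models. At an adjusted p under 0.01, 9 member probes were called, all 9 lower (7 of them Hox) and 0 higher, by limma, and 1326 of all probes were called (772 higher, 554 lower). Without background correction 2 member probes were higher in place of 4. The median change of the members was -0.19 without background correction, -0.056 with no filter, -0.78 over probes detected on all 6 arrays and -0.85 over probes with detection p under 0.01 on 3 arrays; these filters change which probes are counted. Leaving out 1 array at a time gave 9 to 18 member probes called, 9 to 14 lower and 0 to 4 higher, 7 to 11 Hox probes lower, a median from -0.67 to -0.31, and 1504 to 4384 calls over all probes (912 to 2052 higher, 592 to 2332 lower). In the same fits the change of 4 probes that did not pass crossed 0: Hoxc4 ranged from -0.63 to 0.049, Hoxc8 from -0.33 to 0.063, Hoxc10 from -0.31 to 0.16 and Meis3 by ILMN_3126848 from -0.041 to 0.15. With the replicate number as a block, 15 member probes were called (12 lower, 3 higher; 2655 of all probes), and Hoxa2 by ILMN_2618302 (adjusted p = 0.0528), Hoxa13 (0.0598), Pbx3 by ILMN_2642148 (0.0657) and Pbx4 (0.0693) lost their call while Hoxd9 gained one (0.033). Deviations from the group mean showed little correlation between samples with the same number (-0.107, 0.0957 and -0.0927). With so few arrays per group this cannot show whether the numbers pair samples, and the labels do not say. Of the changes of single probes under all alternatives, 450 kept direction and side of the threshold, 44 lost and 7 gained significance and 7 crossed 0. Dim probes near background, such as those of Hoxc and Hoxd, have wide intervals, so changes there were not detectable unless large.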
